A study of Mus musculus with 12 samples.

Results

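The circadian clock genes described here are 10 named genes of the molecular clock, Clock, Per1, Per2, Per3, Cry1, Cry2, Nr1d1, Nr1d2, Dbp and Bhlhe40. They were found by symbol in both deposited tables and joined by Ensembl identifier, 10 of 22935 genes in all. All 10 passed the filter on low counts that left 14146 genes for testing. They were chosen by name with their CPM in the 3 groups below in view, so the levels and differences of these genes are given as a description and without a test of their own. RNA came from BV2, an immortalised mouse microglial line, in a study of microglia and the C3/C3aR pathway in subarachnoid haemorrhage. The 9 libraries analysed were 3 of cells given 10 µM oxyhaemoglobin (oxy-Hb), 3 given the same oxy-Hb with C3a at a labelled 20 ug/ul, and 3 given the same oxy-Hb with 50 µM C3aRA, so every library carried oxy-Hb. C3a is the fragment of complement C3 that binds the receptor C3aR, and the labels use C3aRA without its full name. The 3 PBS samples were not analysed here, so the effect of oxy-Hb itself was not measured. Neither the hours of exposure nor the time of harvest is given in the sources used here, and no series of times was labelled, so the phase of the clock could not be read.

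As background, the mammalian clock is a feedback loop of transcription. CLOCK pairs with BMAL1, the product of Arntl, and the pair binds E-boxes to switch on the Period and Cryptochrome genes, whose proteins return to the nucleus and block the pair. An interlocked loop runs through the nuclear receptors REV-ERB alpha (Nr1d1) and REV-ERB beta (Nr1d2), which repress Arntl at sites that the ROR receptors activate. DBP carries the rhythm to genes with D-boxes, and BHLHE40 competes for E-boxes. In macrophages and microglia the clock is known to set the strength of cytokine responses by time of day, in part through REV-ERB alpha.

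Clock proteins act on these genes through short promoter elements, whose letters were searched for. The 250 bases before the RefSeq start sites were searched in the GRCm38.p6 table, in which 8 of the 10 genes had a window, 11 windows in all. The E-box CACGTG, its variant CACGTT (E-prime box), the REV-ERB and ROR core AGGTCA, the D-box TTATGTAA and the cAMP response element TGACGTCA were searched on both strands. They occurred in 6.04%, 3.87%, 14.0%, 0.811% and 1.56% of 32536 such windows of all genes. Letters of these motifs overlapped each other in none of the windows printed here. The windows of the Per1 gene (chr11:69098699-69098948, plus strand), Per3 (chr4:151044666-151044915, minus strand), Cry1 (chr10:85185055-85185304, minus strand) and Cry2 (chr2:92434070-92434319, minus strand) are shown because the results turn on how members of the 2 families differed. Each is printed 5′ to 3′ on the strand of its gene, from RefSeq, with matches of either strand in capitals, so that a match on the other strand appears as its reverse complement.
Per1: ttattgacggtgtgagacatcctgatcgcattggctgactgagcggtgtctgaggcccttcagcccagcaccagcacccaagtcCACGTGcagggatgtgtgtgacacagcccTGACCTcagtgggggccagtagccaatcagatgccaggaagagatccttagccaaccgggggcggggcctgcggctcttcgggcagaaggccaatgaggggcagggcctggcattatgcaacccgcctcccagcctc
Per3: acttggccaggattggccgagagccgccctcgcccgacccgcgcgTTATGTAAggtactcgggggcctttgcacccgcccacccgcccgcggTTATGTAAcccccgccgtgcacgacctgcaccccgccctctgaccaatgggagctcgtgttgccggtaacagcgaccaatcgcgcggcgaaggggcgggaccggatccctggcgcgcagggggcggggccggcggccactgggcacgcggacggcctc
Cry1: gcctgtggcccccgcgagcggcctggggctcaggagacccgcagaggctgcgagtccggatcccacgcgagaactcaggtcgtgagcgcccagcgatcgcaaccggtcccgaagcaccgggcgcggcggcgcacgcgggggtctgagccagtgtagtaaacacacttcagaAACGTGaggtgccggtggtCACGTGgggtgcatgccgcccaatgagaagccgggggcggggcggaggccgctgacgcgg
Cry2: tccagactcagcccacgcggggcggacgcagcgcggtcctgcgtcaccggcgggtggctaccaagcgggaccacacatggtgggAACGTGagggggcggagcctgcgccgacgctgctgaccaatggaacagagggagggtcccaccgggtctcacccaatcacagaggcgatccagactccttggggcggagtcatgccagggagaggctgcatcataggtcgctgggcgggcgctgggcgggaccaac
Per1 held an E-box at position -166 from the start and the core AGGTCA, read on the other strand, at -137. Cry1 held an E-box at -60 and an E-prime box at -79. Cry2 held an E-prime box at -166 and no CACGTG in this window, whose RefSeq start lies outside the gene span of the deposited annotation. Per3 held the D-box letters at -205 and again at -158. Of the windows not printed, that of Nr1d1, whose RefSeq start also lies outside the gene span, held an E-prime box at -28, that of Nr1d2 the core AGGTCA at -77, and 1 of the 3 windows of Clock the core AGGTCA at -119. The other 2 Clock windows, a further window of Per1 and that of Dbp held none of the 5 motifs. A match of letters is a description and not a binding site.

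Libraries held 12934794 to 20479002 counts. The oxy-Hb columns of both tables were identical (0 values differed), and no 2 replicates agreed within sampling noise. The replicate numbers name libraries, and the labels do not say that they were separate cultures, so errors and p-values measure the spread between these libraries, which may be technical. A single C3a library, replicate 2, was unlike the rest. Its score on the first principal component was 76.3 where the remaining 8 ran from -23.8 to 10.8, and its ribosomal protein genes summed to 48451 CPM (counts scaled to library size) where theirs summed to 31083 to 35712 CPM. For C3a against oxy-Hb, values are therefore also given without it, and from a fit that adjusts each library for exon length and GC content, called the length and GC correction below. The 9 microglial markers were all present, summing to 2136 to 2690 CPM per library, while those of astrocytes, neurons, red cells and endothelial or fibroblast cells each summed to at most 1.65 CPM. Those of oligodendrocytes, with Mog and Olig2 at 0 or without a row, summed to 11.4 to 12.0 CPM with oxy-Hb, 8.12 to 10.1 CPM with C3a and 8.66 to 11.4 CPM with C3aRA, and their part in the results was not tested.

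With oxy-Hb alone the clock genes spanned a wide range of levels. Per kilobase of exon, the scale on which genes can be compared with each other, Cry1 was highest at 8.84 ± 0.298 CPM per kb (SD, n = 3), above Bhlhe40, Per1, Clock and Nr1d2, which followed at 7.08, 6.86, 6.74 and 5.79 CPM per kb with each overlapping its neighbour in that order. Cry2 at 2.31, Nr1d1 at 1.83, Dbp at 1.78 and Per3 at 1.51 CPM per kb formed a lower tier, in which Nr1d1, Dbp and Per3 overlapped their neighbours. Per2 was lowest at 0.586 ± 0.196 CPM per kb (SD, n = 3), from 67, 40 and 65 counts. With C3a, Per1 at 3.15 CPM per kb came after Nr1d2 and Clock, overlapping Clock, and Cry2 at 0.964 CPM per kb came after Dbp, Per3 and Nr1d1, overlapping Nr1d1. With C3aRA, Nr1d2 came next after Cry1, with Cry1, Nr1d2, Clock, Bhlhe40 and Per1 each overlapping the next. Arntl, the partner of Clock, was not in the list and stood between 22.0 and 29.0 CPM (scaled for library composition with TMM, as are all CPM below) over the 9 libraries.

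**Figure D1:**
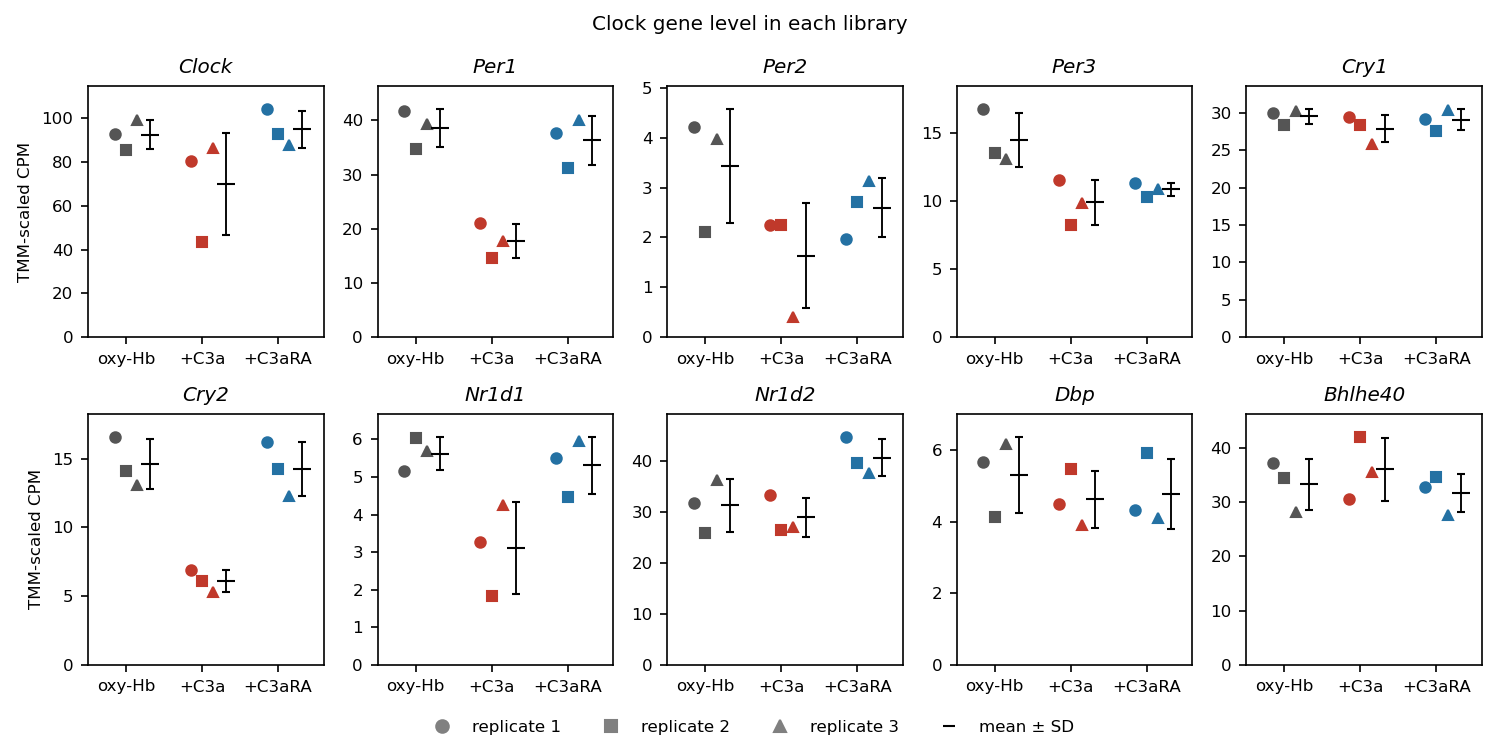
TMM-scaled CPM of the 10 clock genes in each library, with a linear axis from 0 in each panel, symbols for the replicate number and a bar for the mean ± SD of 3 libraries. Per1 and Cry2 in the 3 C3a libraries lie below all 6 other libraries, while Cry1 stays between 25.8 and 30.4 CPM in all 9.

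The Period genes encode the proteins that, with the cryptochromes, close the negative limb of the loop, and Per1 showed the clearest difference among them. Per1 (ENSMUSG00000020893, chromosome 11, 69095217 to 69109960 in GRCm38) stood at 41.7, 34.8 and 39.4 CPM with oxy-Hb, at 21.0, 14.6 and 17.7 CPM with C3a, and at 37.7, 31.2 and 40.1 CPM with C3aRA. The 3 C3a libraries were the lowest of the 9, and the oxy-Hb and C3aRA libraries overlapped. The log2 fold change of Per1 was -1.12 ± 0.15 (SE) for C3a against oxy-Hb, -0.09 ± 0.15 for C3aRA against oxy-Hb and -1.03 ± 0.15 for C3a against C3aRA. For C3a against oxy-Hb it was -1.0 with C3a replicate 2 dropped and -0.82 with the length and GC correction.

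Per3, the period gene that is least needed for rhythm in mice, was lower with both additions. It stood at 16.8, 13.5 and 13.1 CPM with oxy-Hb, 11.5, 8.28 and 9.87 CPM with C3a, and 11.3, 10.3 and 10.9 CPM with C3aRA. All 6 libraries with an addition lay below the 3 with oxy-Hb alone, and C3a and C3aRA overlapped. The log2 fold changes of Per3 were -0.55 ± 0.18 (SE) with C3a and -0.42 ± 0.18 with C3aRA, and the direct difference between the additions was -0.13 ± 0.18. Without C3a replicate 2 the first was -0.44. With the length and GC correction it was -0.31, while the direct difference turned to 0.06, beside a median of 0.05 over all genes. These comparisons share the oxy-Hb libraries. Camta1, on the same strand, overlaps the span of Per3 with 0 shared exon bases, and its log2 fold changes were -0.37 ± 0.14 (SE, edgeR adjusted p = 0.137) with C3a and -0.40 ± 0.14 (adjusted p = 0.512) with C3aRA; its part in the Per3 counts was not tested.

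Per2 was the scarcest and most scattered member. It had 67, 40 and 65 counts with oxy-Hb, 38, 43 and 7 with C3a, and 25, 43 and 54 with C3aRA, or 4.21, 2.12 and 3.97, 2.25, 2.24 and 0.414, and 1.97, 2.70 and 3.12 CPM. The 7 counts of C3a replicate 3 set it apart from the other 8 libraries, and the groups overlapped in every comparison. Its log2 fold change with C3a was -1.06 ± 0.49 (SE), and dropping libraries 1 at a time gave -1.36 to -0.60, the latter without C3a replicate 3. The length and GC correction gave -0.87. At this depth no difference in Per2 could be told from the spread. Summed per kilobase, the 3 Period genes gave 9.87, 7.94 and 9.05 CPM per kb with oxy-Hb, 5.32, 3.83 and 4.24 with C3a, and 8.20, 7.08 and 8.78 with C3aRA. Per1 made up 75.0% to 77.7% of that sum with oxy-Hb, 67.5% to 74.1% with C3a and 78.3% to 81.5% with C3aRA, and these ranges did not overlap.

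The cryptochromes are the strongest repressors of the CLOCK and BMAL1 pair, and with C3a their levels parted. Cry2 (ENSMUSG00000068742, chromosome 2, 92403646 to 92434043 in GRCm38) stood at 16.6, 14.1 and 13.1 CPM with oxy-Hb, at 6.87, 6.09 and 5.32 CPM with C3a, and at 16.2, 14.2 and 12.3 CPM with C3aRA. The highest C3a library lay below the lowest of the other 6. Its log2 fold changes were -1.26 ± 0.18 (SE) for C3a against oxy-Hb, -0.04 ± 0.18 for C3aRA against oxy-Hb and -1.22 ± 0.18 for C3a against C3aRA. For C3a against oxy-Hb the value was -1.26 with C3a replicate 2 dropped and -1.02 with the length and GC correction.

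Cry1 (ENSMUSG00000020038, chromosome 10, 85131700 to 85185064 in GRCm38) varied little. It stood at 29.9, 28.4 and 30.3 CPM with oxy-Hb, at 29.4, 28.4 and 25.8 CPM with C3a, and at 29.2, 27.6 and 30.4 CPM with C3aRA, and all groups overlapped. Its log2 fold change with C3a was -0.08 ± 0.12 (SE), -0.10 without C3a replicate 2 and -0.04 with the length and GC correction. The ratio of Cry1 to Cry2 per kilobase was 3.41, 3.81 and 4.39 with oxy-Hb, 8.09, 8.81 and 9.19 with C3a, and 3.41, 3.68 and 4.69 with C3aRA. Being a ratio within a library, it does not depend on how libraries are scaled to each other. Cry1 and Cry2 differ in exon length (3340 and 6320 bases) and GC content (51.59% and 55.61%), and the ratio was not given the length and GC correction. Cry2 shares 295 exon bases with D930015M05Rik on the opposite strand, whose level was at most 1.65 CPM without TMM scaling in any library.

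**Figure D2:**
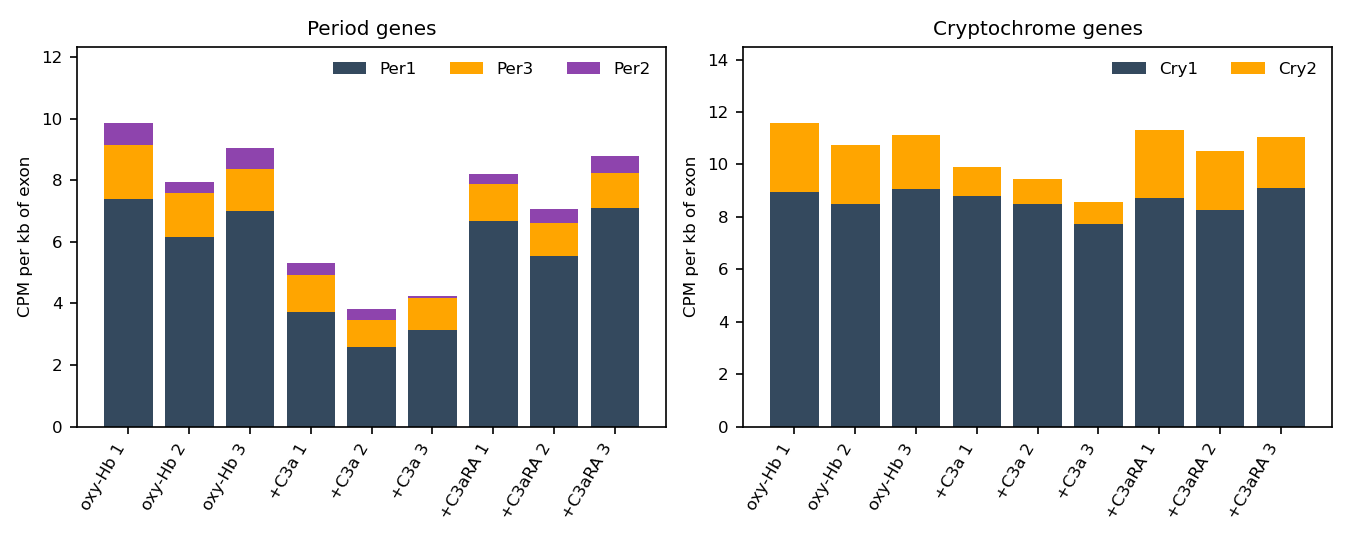
Stacked bars of CPM per kilobase of exon for the Period genes (left) and the cryptochromes (right) in each of the 9 libraries, with axes from 0. The Period sum is 3.83 to 5.32 in the C3a libraries and 7.08 to 9.87 in the others, and in the cryptochrome bars the Cry2 segments of the C3a libraries are all smaller than those of the other libraries while the Cry1 segments of the 3 groups overlap.

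For Clock, the activator, most of the difference lay in a single library. It stood at 92.8, 85.6 and 99.0 CPM with oxy-Hb, 80.4, 43.5 and 86.5 CPM with C3a, and 104, 92.7 and 87.6 CPM with C3aRA. The 43.5 CPM belonged to C3a replicate 2, and Clock has 13727 bases of exon, the longest of the 10. Its log2 fold change with C3a was -0.40 ± 0.20 (SE), -0.15 without that library and -0.23 with the length and GC correction.

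The REV-ERB genes, which repress Arntl and a set of macrophage genes, had different patterns. Nr1d1 stood at 5.15, 6.03 and 5.68 CPM with oxy-Hb, 3.26, 1.82 and 4.25 CPM with C3a, and 5.50, 4.46 and 5.95 CPM with C3aRA. The C3a libraries were below the other 6, with C3a replicate 2 lowest. The log2 fold change of Nr1d1 with C3a was -0.86 ± 0.29 (SE), -0.59 without that replicate and -0.69 with the length and GC correction. Nr1d1 shares 263 exon bases with Thra, the thyroid hormone receptor alpha gene on the opposite strand, and without a stated strand setting their reads cannot be told apart there. Thra had a log2 fold change of -0.64 ± 0.20 (SE, edgeR adjusted p = 0.0822) for C3a against oxy-Hb and -0.79 ± 0.20 (adjusted p = 0.0355) for C3a against C3aRA, a call lost in the 2-group fit and with the length and GC correction (adjusted p = 0.0533). It held in 3 of the 9 fits that dropped 1 library, and was lost without any 1 C3aRA library, oxy-Hb replicates 1 and 2 and C3a replicate 3 (adjusted p from 0.0535 to 0.124). Its part in the Nr1d1 counts was not tested.

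Nr1d2 differed mainly on the side of C3aRA. It stood at 31.7, 25.9 and 36.3 CPM with oxy-Hb, 33.3, 26.5 and 27.1 CPM with C3a, and 44.8, 39.6 and 37.7 CPM with C3aRA. The 3 C3aRA libraries were the highest of the 9, and oxy-Hb and C3a overlapped. Its log2 fold changes were 0.38 ± 0.15 (SE) for C3aRA against oxy-Hb, -0.11 ± 0.15 for C3a against oxy-Hb and -0.49 ± 0.15 for C3a against C3aRA. The second was -0.06 without C3a replicate 2 and -0.08 with the length and GC correction. Nr1d1 made up 21.6% to 29.0% of the summed REV-ERB level per kilobase with oxy-Hb, 10.8% to 21.6% with C3a and 16.5% to 21.7% with C3aRA.

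Dbp and Bhlhe40, the E-box output factors, had overlapping groups throughout. Dbp, a target that follows the CLOCK and BMAL1 pair closely in many tissues, stood at 5.66, 4.13 and 6.17 CPM with oxy-Hb, 4.50, 5.47 and 3.90 CPM with C3a, and 4.33, 5.91 and 4.10 CPM with C3aRA. All its groups overlapped, with log2 fold changes of -0.20 ± 0.26 (SE) for C3a and -0.15 ± 0.26 for C3aRA against oxy-Hb. The value for C3a was -0.34 without C3a replicate 2. It turned to 0.05 with the length and GC correction, beside a median of 0.10 over all genes. Dbp shares 539 exon bases with Sphk2 on the opposite strand, which stood at 8.03 to 12.9 CPM without TMM scaling, and their reads cannot be told apart there. The log2 fold change of Sphk2 was -0.06 with C3a and -0.13 with C3aRA. Bhlhe40, which also answers to stress and immune signals, stood at 37.3, 34.5 and 28.1 CPM with oxy-Hb, 30.5, 42.1 and 35.5 CPM with C3a, and 32.7, 34.6 and 27.7 CPM with C3aRA. Its groups overlapped too, with log2 fold changes of 0.11 ± 0.15 (SE) for C3a and -0.07 ± 0.15 for C3aRA against oxy-Hb. The value for C3a turned to -0.02 without C3a replicate 2 and was 0.17 with the length and GC correction.

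Set against the whole table, 2 of the 10 genes (Per1 and Cry2) were below an edgeR adjusted p of 0.05 for C3a against oxy-Hb, both lower, where 3.94% of all genes were called, 3.04% lower and 0.905% higher. Groups did not overlap for 4 (Per1, Per3, Cry2 and Nr1d1), all lower, beside 27.8% of all genes, 14.6% lower and 13.2% higher. For C3aRA against oxy-Hb 0 of the 10 and 0 of 14146 genes (0.0%) were called by edgeR, while 2 and 1153 had an unadjusted p below 0.05 and DESeq2 called 0 and 11. The 0 depended on the fit, whose estimate of spread also draws on the C3a libraries. Without C3a replicate 2 edgeR called 0 of the 10 and 475 of 14613 genes, and with the 2 groups alone it called 603 genes. For C3aRA against oxy-Hb Per3 was lower and Nr1d2 higher without overlap, beside 22.9% of all genes, 11.0% lower and 11.9% higher. For C3a against C3aRA the same 2 genes were called, both lower, beside 6.19% of all genes, 3.32% lower and 2.87% higher. There 5 (Clock, Per1, Cry2, Nr1d1 and Nr1d2) were lower without overlap, beside 28.8% of all genes, 14.7% lower and 14.1% higher. DESeq2 also called Per3 for C3a against oxy-Hb and Nr1d2 for C3a against C3aRA, where it called 1322 and 1496 of all 14146 genes. In the latter comparison edgeR called Nr1d2 when C3a replicate 2 was dropped, beside 1827 of 14613 genes. It also did so with the length and GC correction, beside 1094 of 14132 genes. Because the list was made with these contrasts in view, nothing is read from these counts. The authors' deposited table gave log2 fold changes with C3a of -1.11 for Per1 and -1.25 for Cry2, the 2 of the 10 that passed 0.05 there, and 0 of the 10 passed in its C3aRA comparison. The median log2 fold change over the 10 was -0.48 for C3a against oxy-Hb, -0.08 for C3aRA against oxy-Hb and -0.46 for C3a against C3aRA, beside medians over all genes of 0.00, -0.01 and 0.01. With the length and GC correction the first of these was -0.27, beside 0.10 over all genes, and with C3a replicate 2 dropped it was -0.39. In bulk RNA, fewer cells with a transcript and less of it per cell cannot be told apart.

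**Figure D3:**
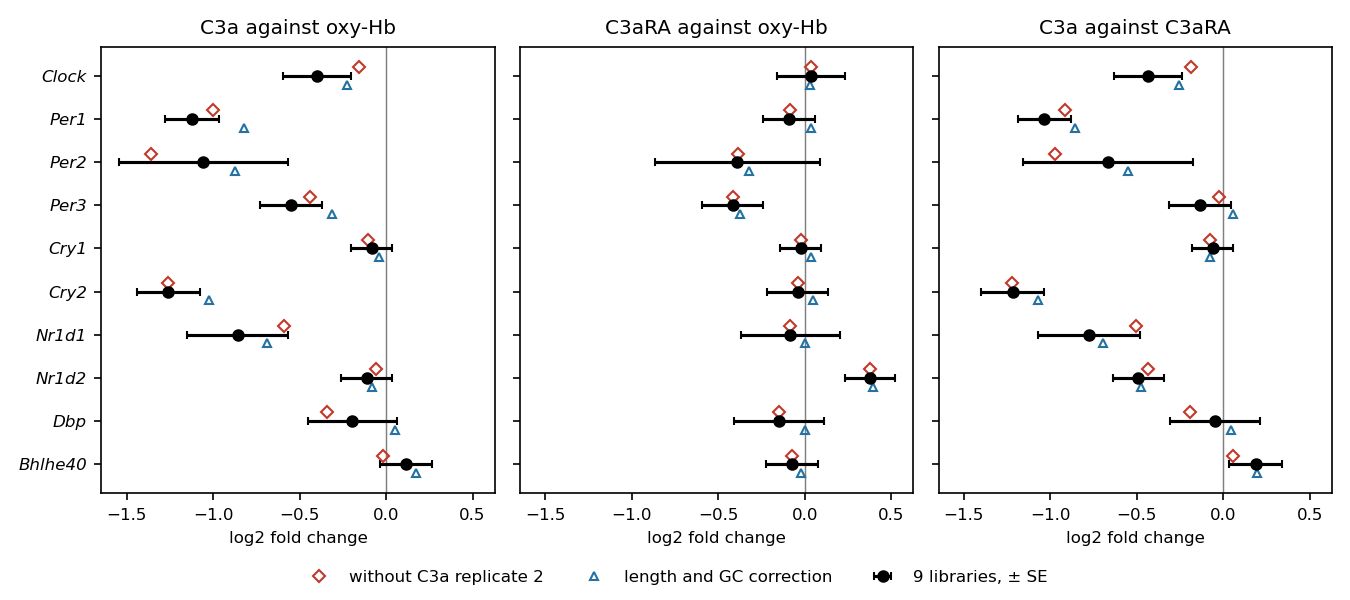
Log2 fold changes of the 10 clock genes in the 3 comparisons (filled points, ± SE from the fit of 9 libraries), with the values when C3a replicate 2 is dropped (open diamonds) and with the length and GC correction (open triangles). Per1 and Cry2 lie between -1.26 and -0.82 under all 3 settings in both comparisons of C3a, and Cry1 lies close to 0 in each panel.

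The other parts of the clock, none of them in the list above, were tested over all 14146 genes with edgeR's quasi-likelihood test. The lists of these parts, and those further below, were also chosen with earlier results of these data known. Of 11 further core clock genes 8 were testable, together with 9 of 10 kinases and ubiquitin ligases that set the stability of PER and CRY and all 5 clock outputs. Npas2, which can stand in for Clock, reached at most 10 counts in any library and was not tested. For C3a against oxy-Hb 0 of these 22 passed (4 had an unadjusted p below 0.05, as did 3411 of all 14146 genes, and DESeq2 called 1, Csnk1e). Without C3a replicate 2 edgeR called 5 (Bhlhe41, Csnk1e, Nampt, Nfil3 and Noct), where it called 1395 of 14613 genes. Arntl stood at 24.1 ± 2.90 CPM with C3a and 24.3 ± 1.87 CPM with oxy-Hb (SD, n = 3). Its log2 fold change was -0.01 ± 0.14 (SE). The lowest adjusted p were those of the kinase Csnk1e (-0.34 ± 0.11 (SE), adjusted p = 0.0851) and Noct, nocturnin (-0.38, adjusted p = 0.0924), which were -0.08 and -0.19 with the length and GC correction. Ciart, an E-box repressor of the loop, stood at 6.58 ± 0.491 against 8.92 ± 0.768 CPM (SD, n = 3; log2 fold change -0.44, edgeR adjusted p = 0.20), and Nfil3, which opposes DBP at D-boxes, at -0.34 (adjusted p = 0.243). For C3aRA against oxy-Hb 0 of the 22 passed in edgeR and DESeq2 called 0. An unadjusted p below 0.05 was found for 3, as for 1153 of all 14146 genes. Noct had the lowest edgeR adjusted p (-0.45, adjusted p = 0.479). Without C3a replicate 2 edgeR called 1, Noct (-0.45), where it called 475 of 14613 genes.

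Between C3a and C3aRA 2 of the 22 passed, both lower with C3a, beside 3.32% of all genes. An unadjusted p below 0.05 was found for 6, as for 3427 of all 14146 genes. DESeq2 called 3 (Csnk1e, Prkaa1 and Rora), where it called 1496 of all genes. Without C3a replicate 2 edgeR called 4 (Bhlhe41, Csnk1e, Nfil3 and Prkaa1), where it called 1827 of 14613 genes. The kinase gene Prkaa1 went the other way, higher with C3a (0.33 ± 0.10 (SE), edgeR adjusted p = 0.0621). Rora, the ROR receptor that drives Arntl against the REV-ERBs, stood at 25.8, 17.3 and 17.7 CPM with oxy-Hb, 23.2, 8.75 and 9.81 CPM with C3a, and 37.2, 32.2 and 32.3 CPM with C3aRA. The C3aRA libraries were highest and the C3a libraries scattered. Rora was lower with C3a than with C3aRA by a log2 fold change of -1.29 ± 0.31 (SE, edgeR adjusted p = 0.035), and Csnk1e, the casein kinase that marks PER for turnover, by -0.47 ± 0.11 (adjusted p = 0.026). These calls were fragile. In the 9 fits that left out 1 library, Rora passed in 3 and Csnk1e in 4. Rora had an adjusted p of 0.0935 without C3a replicate 2, while Csnk1e passed without it, and the Csnk1e call was lost with the length and GC correction (-0.29, adjusted p = 0.0745). Both calls were lost when any C3aRA library, C3a replicate 3 or oxy-Hb replicate 2 was dropped and in the 2-group fit, and that of Rora with no count filter (adjusted p = 0.133).

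**Figure D4:**
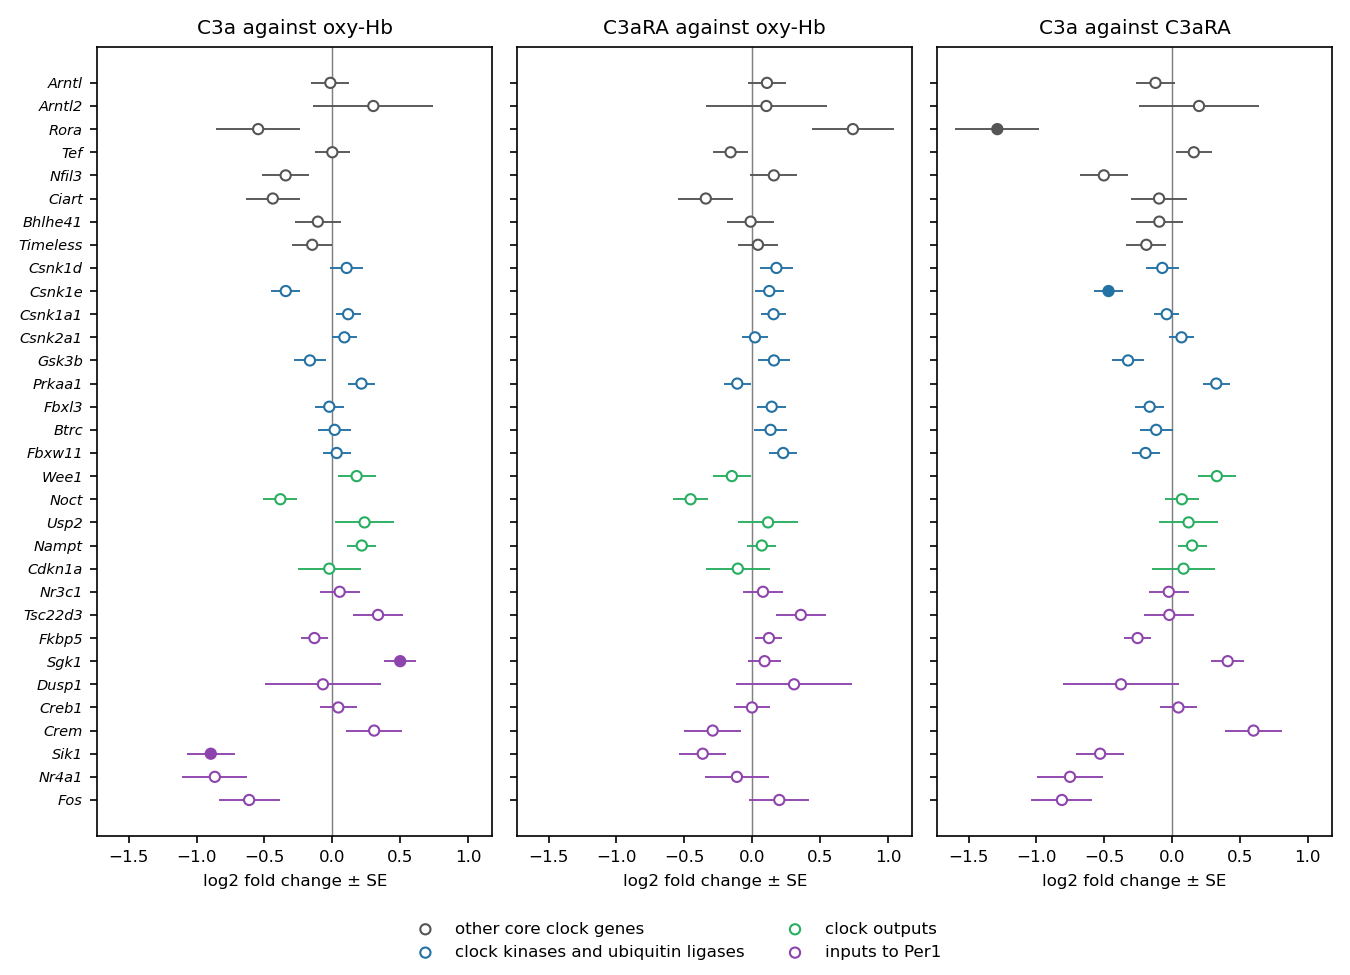
Log2 fold changes ± SE of the tested genes of 4 further lists in the 3 comparisons, with filled points for genes at an edgeR adjusted p below 0.05 and colours for the lists. Filled points are Sgk1 and Sik1 for C3a against oxy-Hb and Rora and Csnk1e for C3a against C3aRA, and Arntl lies between -0.12 and 0.11.

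Per1 is also an immediate response gene of glucocorticoid and cAMP signalling, so 10 genes of those inputs were examined. With C3a against oxy-Hb 1 rose and 1 fell, where 0.905% of all genes were called higher and 3.04% lower, and DESeq2 called a further 1, Nr4a1. Sik1, a kinase gene induced through CREB, stood at 20.7, 21.6 and 17.9 CPM with oxy-Hb, 13.4, 10.2 and 8.81 CPM with C3a, and 14.7, 14.7 and 17.4 CPM with C3aRA. It fell with C3a by 0.89 ± 0.18 (SE) on the log2 scale (edgeR adjusted p = 0.0144), a call held in 7 of the 9 fits and lost without oxy-Hb replicate 1 or oxy-Hb replicate 2 (adjusted p = 0.0939 and 0.0806) and in the 2-group fit (adjusted p = 0.0599). Sgk1, a glucocorticoid-induced kinase gene, rose by 0.50 ± 0.12 (SE, adjusted p = 0.0344), held in the 3 fits that each dropped a C3a library and lost in the other 6, with adjusted p from 0.0571 to 0.18, and in the 2-group fit (adjusted p = 0.117). Nr4a1 (-0.86, adjusted p = 0.058) and Fos (-0.61, adjusted p = 0.126), further CREB targets, did not pass in edgeR, and without C3a replicate 2 both passed. Crem, another gene of the list, went the other way at 0.31 (edgeR adjusted p = 0.375). The median of the 10 input genes was -0.01, with 5 below 0. With C3aRA against oxy-Hb 0 of the 10 passed in edgeR, 0 had an unadjusted p below 0.05 and DESeq2 called 0. Between C3a and C3aRA 0 of the 10 passed in edgeR and 6 had an unadjusted p below 0.05, as did 3427 of all 14146 genes. DESeq2 called 3 there (Fos, Nr4a1 and Sgk1), where it called 1496 of all genes. Without C3a replicate 2 edgeR called 3 lower with C3a (Dusp1, Fos and Nr4a1) and 1 higher (Sgk1), where it called 1827 of 14613 genes. With the length and GC correction it called 1 lower (Fos) and 1 higher (Sgk1), where it called 1094 of 14132 genes. Crem was 0.60 (edgeR adjusted p = 0.1) for C3a against C3aRA. Of 5 macrophage genes that REV-ERB is known to repress, 0 passed in either comparison with oxy-Hb (1 in each had an unadjusted p below 0.05, and DESeq2 called 0), and Il6 was lower with C3a than with C3aRA (-1.26 ± 0.24 (SE), edgeR adjusted p = 0.0126; adjusted p = 0.0658 and 0.0598 without C3aRA replicates 1 and 3). Cx3cr1, the fractalkine receptor, went the other way, with a log2 fold change of 0.89 in that comparison (adjusted p = 0.0521). Cx3cr1 passed in edgeR without C3a replicate 2 (1.01) and with the length and GC correction (0.89). DESeq2 called both Il6 and Cx3cr1 for C3a against C3aRA, where it called 1496 of all 14146 genes and edgeR 6.19% of them.

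The genes whose levels followed those of Per1 most closely over the 9 libraries were sought on log2(CPM + 0.5), among genes averaging 5 CPM or more outside all lists. Per1 was the reference because its F statistic over the 3 groups was the largest of the 10. They were Med15, a subunit of the Mediator complex (Pearson r = 0.992), Sidt2 (0.987), Fzd7, a Wnt receptor (0.987), Atxn2l (0.985) and Ciz1 (0.984). Med15 stood at 49.3, 30.8 and 48.1 CPM in the means of oxy-Hb, C3a and C3aRA. Without C3a replicate 2 the r of these 5 genes was 0.973 to 0.986. The 9 points share library composition and the same low C3a group, and the correlations are given as a description.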

How the data were processed

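RNA of BV2 cells was sequenced in 12 samples, and the deposited tables used here hold 9 of them. Per the file headers, the authors' 2 tables give raw counts per Ensembl gene, the log2 fold change, and the p-value and adjusted p-value of their own comparison with oxy-Hb. Per the submitters' processing notes the genome builds were GRCm38 and mm10. Which aligner, counter, strand setting and test they used is not given in the sources used here. Groups come from the treatment labels and replicate numbers from the titles. The members and all lists were chosen with earlier results of these data known.

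Counts of all genes were filtered with filterByExpr (minimum count 10), scaled with TMM and tested with edgeR 4.0.16 (robust quasi-likelihood F test, 1 coefficient per group, R 4.3.3). A gene was called where its p, adjusted by Benjamini-Hochberg over 14146 genes, was below 0.05. SEs are the log2 fold change divided by the root of F. The scripts were tested on simulated data. Exon length and GC content came from GENCODE M21 (GRCm38), where all 10 members had the same span. Library totals of 12934794 to 20479002 counts put 3 counts at 0.146 to 0.232 CPM, which covers counting error only.

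Named genes were the 10 members, genes overlapping them, called genes of each list with those of lowest adjusted p up to 4, and 5 genes most like Per1. A gene of the other core clock list is not reported here and was left out of that list. Arntl and Npas2 were named after their values were seen. Alternatives were DESeq2 1.42.0 (its Wald test, and its size factors), upper quartile scaling, no filter, 2-group fits, a replicate block, each library left out, and offsets from splines of length and GC content.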

Additional observations from a re-analysis of the deposited data

How the results depend on the processing

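After the length and GC correction the median of the 10 clock genes moved by more than its spread between replicates in 2 comparisons. It went from -0.48 to -0.27 for C3a against oxy-Hb and from -0.08 to 0.0162 for C3aRA against oxy-Hb. The medians over all genes also rose, from 0.0016 to 0.0965 and from -0.0117 to 0.0364, so part of each move was shared. Whether the moves relative to all genes exceeded that spread was not tested. Dropping libraries 1 at a time gave clock medians from -0.58 to -0.39, -0.11 to -0.02 and, for C3a against C3aRA, -0.57 to -0.31. The last moved beyond its spread without C3a replicate 2 (-0.3128) and without C3a replicate 3 (-0.3206). Of 30 log2 fold changes of the 10 genes, 13 turned direction under at least 1 alternative, none of them larger in size than 0.20. These were 3 for C3a against oxy-Hb, 7 for C3aRA against oxy-Hb and 3 for C3a against C3aRA. Some turned under the length and GC correction, where the medians over all genes were themselves above 0 (0.0965, 0.0364 and 0.0489). Counts over all genes depended on the libraries and the method, and the cause was not tested. For C3a against oxy-Hb 558 calls became 1033 without a filter, 99 with 2 groups, 968 after the length and GC correction, 1322 with DESeq2, and 54 to 1638 with 1 library left out (lowest without oxy-Hb replicate 1, highest without C3a replicate 1). For C3aRA against oxy-Hb 0 became 8 without a filter, 603 with 2 groups, 11 with DESeq2, and 0 to 475 with 1 library left out, the last without C3a replicate 2. For C3a against C3aRA 876 became 118 with 2 groups, 1496 with DESeq2 and 53 to 1827 with 1 library left out (lowest without C3aRA replicate 1, highest without C3a replicate 2). Calls among the 22 other clock genes went from 0 to 1 with DESeq2 and 0 to 5 with 1 library left out (C3a against oxy-Hb), from 0 to 2 with 2 groups and 0 to 1 with 1 library left out (C3aRA against oxy-Hb), and from 2 to 0 with 2 groups and 0 to 4 with 1 library left out (C3a against C3aRA).

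Deviations of same-numbered libraries were at most weakly correlated (-0.041 to 0.17), beside -0.142 to 0.081 for unlike numbers. The highest values, 0.17 and 0.111, were those of same-numbered oxy-Hb and C3a libraries. The labels do not mark pairs, so the numbers are not treated as pairs. With the replicate block 835, 0 and 1210 genes were called, and 0, 0 and 2 of the other clock genes. In that fit the edgeR adjusted p for C3a against C3aRA was 0.00252 for Rora and 0.0195 for Csnk1e. Among the genes outside the 10, directions turned for Sphk2, Ccl2 and Timeless, none of which passed in the 9-library fit. For C3a against oxy-Hb Sphk2 was 0.17 with the length and GC correction and ran from -0.3648 to 0.0818 with 1 library left out, and for C3a against C3aRA from -0.2342 to 0.2142. Ccl2 for C3aRA against oxy-Hb ran from -0.0497 to 0.1612. Timeless for C3a against oxy-Hb, -0.15 with all libraries, was 0.0555 with the length and GC correction and ran from -0.2326 to 0.0126, the last without C3a replicate 2. Of 1136 values of these other genes 1043 kept direction and side of the threshold, and of 480 values of the 10 clock genes 476 stayed within the spread between replicates. Those that moved beyond it included Per1 (-0.82), Per3 (-0.31) and Cry2 (-1.02) for C3a against oxy-Hb with the length and GC correction. The median over all genes there was 0.0965, from 0.0016 without the correction. The count of 476 is no measure of stability. With 3 libraries in a group, leaving 1 out can hardly move a value beyond that spread. Counts per library were low for Per2 (7 to 67), Nr1d1 (35 to 114) and Dbp (55 to 105), which limits their precision.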
